A study of Mus musculus with 26 samples.

Results

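The genes described here carry the symbols of histones, the proteins around which DNA is wound, in fully grown mouse oocytes at the germinal vesicle (GV) stage, before meiosis resumes. Members were chosen by symbol alone: every row beginning with Hist1h, Hist2h, Hist3h, Hist4h, H1f, H2af or H3f that held at least 1 count. This gave 73 genes of 24450 features, after 12 of 85 matching rows were left out because they were at 0 in every column. Of the 73, 58 were replication-type genes, called clustered here after the gene clusters that hold most of them (5 linker H1, 14 H2A, 16 H2B, 11 H3 and 12 H4). A further 3 lie in the same cluster but are known as germ-cell genes (Hist1h1t, Hist1h2aa and Hist1h2ba). The remaining 12 were the oocyte linker histone H1foo, 2 other linker variants (H1f0 and H1fx), 7 H2A variants and the 2 genes of the replacement histone H3.3 (H3f3a and H3f3b). GENCODE annotates 3 of the 73 as processed pseudogenes, the clustered Hist1h2al and Hist3h2bb-ps and the H2A variant H2afy3; Hist1h2al was tested and not called.

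Polyadenylated RNA was sequenced from pools of 10 oocytes, and 24 distinct libraries were used. There were 7 libraries of LCD KO (Tet3 with a floxed low-complexity domain, LCD, deleted by the oocyte-expressed Zp3-Cre), 5 of HD mutant (the LCD allele with an HD mutation, an abbreviation the sources used here do not define, and Zp3-Cre), 2 of Dnmt3a KO (floxed Dnmt3a and Zp3-Cre), 2 of DKO (floxed Dnmt3a and floxed LCD with Zp3-Cre), 2 labelled Tet3 KO (floxed Tet3 and Zp3-Cre) and 6 of WT (the floxed LCD allele without Cre). Each group except WT therefore carried Cre, and in comparisons with WT Cre itself cannot be told apart from the deletion. In DKO against Dnmt3a KO and in HD mutant against LCD KO both groups carried Cre. The columns labelled TKO, for floxed Tet1, Tet2 and Tet3, were identical to those labelled Tet3 KO in all 24542 rows and were counted once. Tet3 oxidizes methylated cytosine, and Dnmt3a places methylation on DNA in the growing oocyte.

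Replication-type histone genes are mostly transcribed when DNA is copied, and their mRNAs usually end in a conserved stem-loop in place of a poly(A) tail. Genes of histone variants, including H3.3, H2A.Z and H1foo, are transcribed outside S phase into polyadenylated mRNAs, and H1foo is the linker histone of oocytes and early embryos. A library made from polyadenylated RNA therefore captures variant transcripts, and a clustered gene where its transcript carries a tail, so these counts cannot tell more mRNA from more polyadenylated mRNA. In pools of cells, fewer cells of a type and less RNA per cell cannot be told apart either.

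A pattern of the histone stem-loop (GG and pyrimidines, a short loop, purines and CC) was searched for on the sense strand of all GENCODE M21 (GRCm38) transcripts, at any position. It was found in at least 1 transcript of 0.242% of all gene symbols, in 39 of 58 clustered genes and in 2 of the 15 other members, H2afx and Hist1h1t. The search ended with each annotated transcript (312 bases for Hist1h4k), so a gene without a match may still hold a hairpin. The sites of the 6 genes whose values carry most of what follows are shown with 5 flanking bases on each side, stem and loop in capitals.

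Hist3h2a: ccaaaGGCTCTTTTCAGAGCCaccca
Hist3h2ba: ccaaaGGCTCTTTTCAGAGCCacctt
Hist1h4d: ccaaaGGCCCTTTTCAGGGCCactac
Hist1h4b: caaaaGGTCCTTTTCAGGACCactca
Hist1h1e: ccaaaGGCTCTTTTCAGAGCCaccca
H2afx: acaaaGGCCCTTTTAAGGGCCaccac

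Hist3h2a, Hist3h2ba and Hist1h1e shared 1 hairpin, while the H4 genes and H2afx had stems of other letters. In Hist3h2a, Hist1h4d and Hist1h1e the annotated transcript ran on for 1643, 770 and 1153 bases after the hairpin, against 169 bases in Hist3h2ba and 28 in Hist1h4b. Over all clustered genes with a hairpin, 18 ended within 100 bases of it and 21 ended further away.

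The promoters of Hist3h2a and Hist3h2ba, which lie close together on chromosome 11, and of H1foo are shown to compare a clustered pair with the oocyte variant. Each sequence runs from 250 bases before the start site to 50 after it (RefSeq, GRCm38.p6, plus strand), at chr11:58954435-58954734, chr11:58948661-58948960 and chr6:115944681-115944980 in the order below. Capitals mark matches on either strand to CCAAT, to TATAA and to the octamer ATTTGCAT, an element known from H2B promoters.

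Hist3h2a promoter: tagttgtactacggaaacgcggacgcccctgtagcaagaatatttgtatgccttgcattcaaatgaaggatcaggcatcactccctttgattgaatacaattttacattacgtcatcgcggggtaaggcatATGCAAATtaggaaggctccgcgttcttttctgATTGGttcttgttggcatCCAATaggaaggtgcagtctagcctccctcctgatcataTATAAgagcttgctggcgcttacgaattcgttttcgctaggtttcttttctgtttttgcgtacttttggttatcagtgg
Hist3h2ba promoter: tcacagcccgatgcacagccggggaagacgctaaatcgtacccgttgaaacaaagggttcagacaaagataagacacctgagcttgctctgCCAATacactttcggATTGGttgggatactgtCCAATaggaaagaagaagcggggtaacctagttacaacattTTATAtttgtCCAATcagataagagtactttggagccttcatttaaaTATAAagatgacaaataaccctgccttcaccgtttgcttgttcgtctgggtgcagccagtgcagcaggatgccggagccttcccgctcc
H1foo promoter: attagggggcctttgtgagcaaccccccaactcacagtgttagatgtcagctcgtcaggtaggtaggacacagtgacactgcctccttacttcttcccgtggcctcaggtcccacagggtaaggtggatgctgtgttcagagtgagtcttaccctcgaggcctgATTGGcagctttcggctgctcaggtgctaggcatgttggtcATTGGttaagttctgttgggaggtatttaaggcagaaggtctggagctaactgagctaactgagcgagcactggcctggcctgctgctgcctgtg

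The Hist3h2a window held all 3 motifs, the Hist3h2ba window held CCAAT and TATAA, and the H1foo window held CCAAT alone. RefSeq promoters were matched for 64 of the 73 members. CCAAT occurred in 84.3% of the 51 clustered promoters, against 37.9% of 27025 RefSeq promoters of the same length, and TATAA in 78.4% against 25.5%. The octamer occurred in 21.6% of the clustered promoters, against 1.75% of all, and in 5 of the 13 clustered H2B promoters. These matches describe the letters and not the use of a site.

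The libraries held 3329734 to 4309573 counts each (batch 1), 5403852 to 7833087 (batch 2) and 2558479 to 4144414 (batch 3), and HD mutant 4 and 5, whose batch is not stated, held 1838824 and 2242310. Batch 1 held LCD KO 1 to 3 and WT 1 to 3, batch 2 held LCD KO 4 and 5, HD mutant 1 to 3 and WT 4, and batch 3 held all other libraries. All 10 oocyte markers were detected in every library. The Tet3 level was 44.0 to 204 CPM (counts scaled to library size with TMM factors, as in edgeR) in LCD KO, 50.3 to 202 CPM in HD mutant and 56.6 and 65.4 CPM in DKO, against 156 to 428 CPM in WT. The Dnmt3a level was 131 and 107 CPM in Dnmt3a KO and 99.3 and 96.3 CPM in DKO, below every WT library. Tet3 was at 262 and 357 CPM where the label reads Tet3 KO, while Dnmt3a was there at 105 and 143 CPM, against 236 to 622 CPM in WT, so the counts go against that label.

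H1foo was by far the most abundant histone transcript in these libraries of polyadenylated RNA, which cannot rank it against histone mRNAs without a tail. Per kilobase of annotated exon, its level in WT was 10218 ± 6022 CPM (SD, n = 6), followed by H3f3b, which encodes H3.3, at 1135 ± 618 CPM per kilobase. Hist1h2bc, a clustered H2B gene, came next at 206 ± 26.8 CPM per kilobase, H3f3a at 152 ± 58.1 and H2afx, the H2A variant phosphorylated at DNA breaks, at 151 ± 72.6. The levels of these last 3 genes overlapped within their SDs. Hist3h2a was at 5.40 ± 2.40 and Hist1h4d at 2.03 ± 0.945 CPM per kilobase in WT.

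Most clustered genes were scarcely detected. Of the 73 members, 39 passed the filter on low counts and 34 did not, among them 32 clustered genes, with 1 to 116 counts over the 24 libraries. Hist1h1t, the linker histone of the testis, was one of these, with 13 counts in all, 9 of them in LCD KO 4 and 5 and 4 in HD mutant 2 and 3, all of batch 2, whose single WT library had 0. Near-identical copies limit what the others can say. Of the 73 members, 48 shared at least one 150-base window of sequence with another gene's transcript, and 13 shared over 50% of their windows. Among the 12 rows at 0, 8 shared over 50%, and the sources used here do not say how reads with several alignments were counted.

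In LCD KO oocytes 16 of the 39 tested histone genes were higher than in WT and 0 were lower. Over all 11794 genes tested, 18.3% were called in either direction and 8.89% were called higher. The median log2 fold change was 0.50 over the tested members and -0.02 over all genes, and 32 of the 39 members were positive. By class, 11 of 26 clustered genes, 4 of 6 H2A variants and 1 of 2 germ-cell genes were higher, whereas 0 of 2 H3.3 genes and 0 of 2 other linker variants were, and H1foo was not called. Within the clustered genes 2 of 4 H1 genes, 1 of 4 H2A, 3 of 6 H2B, 1 of 4 H3 and 4 of 8 H4 were called. All these calls come from the quasi-likelihood test of edgeR at a Benjamini-Hochberg adjusted p under 0.05, with a term for batch. The filter on low counts was set by the smallest group, so a scarce gene could enter through the group where it was high. Hist1h1d, Hist1h1e, Hist1h4b and Hist1h4n, all among the 16, did not pass it when set by LCD KO and WT alone. Their calls and large fold changes carry that limit, as do the counts that include them. They are the 2 called H1 genes and 2 of the 4 called H4 genes.

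**Figure D1:**
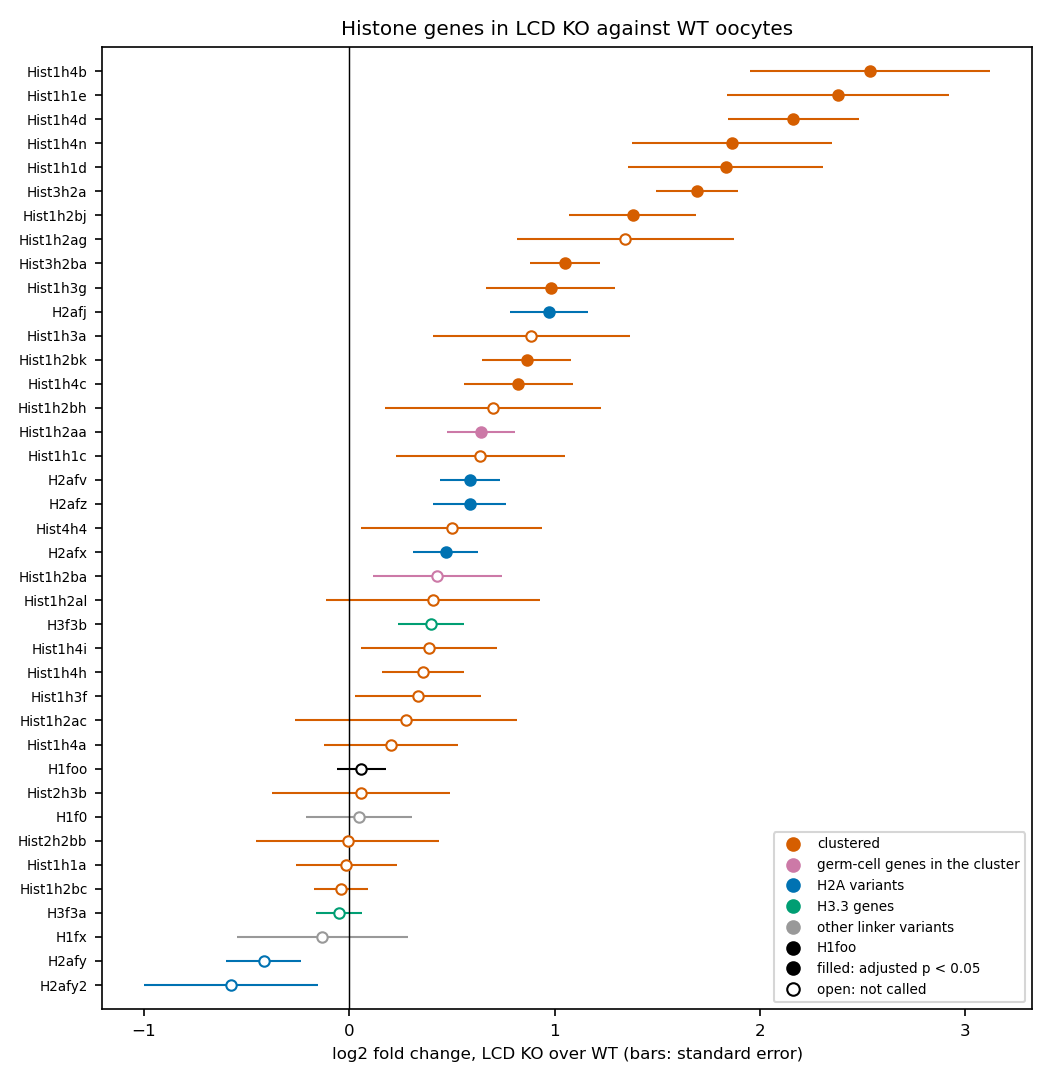
Log2 fold change of LCD KO over WT (horizontal axis) for the 39 tested histone genes, with standard errors as bars and colours for the gene classes; filled points passed the test. The 16 filled points all lie to the right of 0, from 0.47 for H2afx to 2.54 for Hist1h4b, and H1foo lies at 0.06.

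Batch matters for these calls and was looked at within each. In 11 of the 39 tested members every LCD KO library was above every WT library of its batch in all 3 batches, and all 11 were among the 16 called; the same held for 6.26% of all genes tested. Without the batch term 6 members were called. With batch 1 alone 11 were called, and with batch 2 alone (1 WT library) or batch 3 alone (2 WT libraries) 0 were called, with 8 members at an unadjusted p under 0.05 in each. A test of whether the LCD KO effect differed between batches called 0 of the 23 members it covered, with 84 of 10045 genes called in all, and its lowest adjusted p was 0.103 for Hist3h2a. Its unadjusted p was 0.00273 to 0.0483 for Hist3h2a, H2afj, Hist1h2bc, Hist1h2ba, H2afv and Hist3h2ba, so equal effects are not shown. It did not cover the called genes Hist1h1d, Hist1h1e, Hist1h4b and Hist1h4n, which were too scarce for its filter. Of these, Hist1h1d, Hist1h1e and Hist1h4b were among the 11 members set apart in all 3 batches.

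Hist3h2a and Hist3h2ba, an H2A and an H2B gene that stand close together on chromosome 11, had the lowest and the third-lowest adjusted p of the members. Hist3h2a was at 33.1, 37.6 and 46.5 CPM in LCD KO (lowest, median and highest of 7), against 5.85, 11.6 and 18.3 CPM in WT (of 6). The groups did not overlap, and the log2 fold change was 1.69 ± 0.20 (SE, adjusted p = 1.84e-06). It was 2.43 ± 0.24 within batch 1, 1.31 ± 0.30 within batch 2 and 1.16 ± 0.31 within batch 3.

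Hist3h2ba was at 44.6, 53.0 and 58.8 CPM in LCD KO, against 14.0, 25.2 and 40.1 CPM in WT. Again no library of one group reached into the other, and the log2 fold change was 1.05 ± 0.17 (adjusted p = 0.000114). Hist3h2ba shared no window with another transcript. Hist3h2a lies inside the annotated span of Trim17 on the same strand and shared 28.0% of its windows with it. Trim17 itself was at 0 to 0.678 CPM in LCD KO and at 0 to 0.719 CPM in WT. How reads of the shared stretch were assigned is not stated, and its part in the Hist3h2a level was not tested.

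Of the H4 genes, Hist1h4d had the firmest call. Its level was 6.26, 11.7 and 18.1 CPM in LCD KO, against 0.937, 2.45 and 3.96 CPM in WT, with no overlap. The log2 fold change was 2.16 ± 0.32 (adjusted p = 3.29e-05), and it lay between 1.99 and 2.51 within the batches. The gene shared no window with another transcript.

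Hist1h4b had the highest log2 fold change, 2.54 ± 0.58 (adjusted p = 0.00344), at very low levels. It was at 0.728, 1.65 and 6.45 CPM in LCD KO, against 0, 0.133 and 1.62 CPM in WT, so the groups overlapped when batches were pooled and not within a batch. WT 1 to 3 were all at 0, and without WT 4 the log2 fold change was 3.42 (adjusted p = 0.00799). Its whole length is overlapped by the antisense gene 4930558J22Rik, which was not analysed here, and without a stated strand setting reads of the 2 genes cannot be told apart.

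Hist1h4n and Hist1h4c completed the called H4 genes. Hist1h4n was at 0.411 to 6.33 CPM in LCD KO, against 0.265 to 0.899 CPM in WT, a log2 fold change of 1.86 ± 0.49 (adjusted p = 0.00872) in groups that overlapped. It shared 77.2% of its windows with Hist1h4m, a row at 0, and is uncertain for that reason, and without WT 4 its adjusted p was 0.0842. Hist1h4c was at 5.61, 7.40 and 17.9 CPM in LCD KO, against 2.73, 3.60 and 9.71 CPM in WT, a log2 fold change of 0.82 ± 0.27 (adjusted p = 0.0315). Its groups overlapped, and its call was lost in 8 of the 13 fits that left out 1 library (LCD KO 1, 2 or 3, or WT 1, 2, 3, 4 or 6), at adjusted p = 0.0545 to 0.0830.

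The called linker genes of the cluster were Hist1h1e and Hist1h1d, which encode somatic H1 subtypes. Hist1h1e was at 1.25, 4.11 and 13.2 CPM in LCD KO, against 0, 0.155 and 3.42 CPM in WT, with WT 1 to 3 at 0. Its log2 fold change was 2.38 ± 0.54 (adjusted p = 0.00322), and 3.22 without WT 4 (adjusted p = 0.00639). Hist1h1d was at 1.09, 1.68 and 7.01 CPM in LCD KO, against 0, 0.437 and 1.62 CPM in WT, a log2 fold change of 1.83 ± 0.48 (adjusted p = 0.00827). Both pairs of groups overlapped over all batches and were apart within each, and Hist1h1e shared 19.5% of its windows with Hist1h2be, whose annotation it overlaps.

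Among the H2B genes, Hist1h2bj was at 4.68, 5.76 and 6.92 CPM in LCD KO, against 0.780, 1.86 and 3.72 CPM in WT, with no overlap and a log2 fold change of 1.38 ± 0.31 (adjusted p = 0.00259). Hist1h2bk was at 9.66, 13.9 and 18.7 CPM in LCD KO, against 4.06, 6.89 and 11.7 CPM in WT, with overlap and a log2 fold change of 0.86 ± 0.22 (adjusted p = 0.00677). Hist1h2bk shared 60.9% of its windows with other H2B genes and its level is uncertain to that degree. The sole called H3 gene, Hist1h3g, was at 2.55, 4.56 and 7.91 CPM in LCD KO, against 0.312, 1.97 and 5.40 CPM in WT. Its log2 fold change was 0.98 ± 0.31 (adjusted p = 0.0292), and the call was lost in 6 of 13 fits that left out 1 library (LCD KO 2, 3 or 6, or WT 1, 2 or 6), at adjusted p = 0.0528 to 0.0708.

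Hist1h2bc, the most abundant clustered gene, was not called. It was at 129, 214 and 314 CPM in LCD KO, against 196, 253 and 263 CPM in WT, and its log2 fold change was -0.04 (adjusted p = 0.864). The stem-loop pattern was not found in its annotated transcripts, which says nothing of other ends. Because it made up much of the clustered sum, the sum was also taken without it, a choice made after its values were seen.

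Without Hist1h2bc, the clustered genes summed to 175 to 194 CPM in LCD KO, against 63.9 to 101 CPM in WT, in batch 1. In batch 2 the sum was 295 and 308 CPM in LCD KO, against 206 CPM in the single WT library. In batch 3 it was 172 and 207 CPM in LCD KO, against 97.4 and 107 CPM in WT, so LCD KO lay above WT within each batch while WT 4 lay above the LCD KO libraries of batch 1. The same sum in batch 3 was 92.3 and 124 CPM in Dnmt3a KO, 172 and 201 CPM in DKO and 93.0 and 105 CPM in the libraries labelled Tet3 KO.

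**Figure D2:**
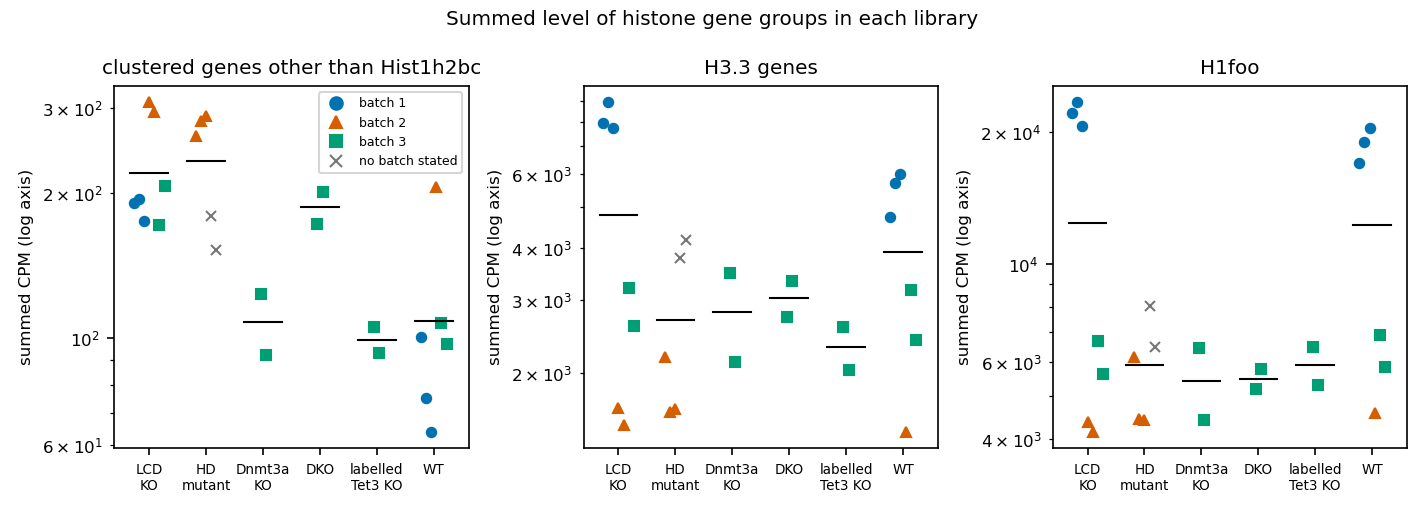
Summed CPM (vertical log axes) of the clustered genes other than Hist1h2bc, of the H3.3 genes and of H1foo in each of the 24 libraries, by group; marker colour and shape give the batch and horizontal lines the group means. In the clustered panel LCD KO and DKO lie above the WT libraries of their own batch, and in the H1foo panel the batch 1 libraries lie between 16977 and 23324 CPM, above all others.

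Levels also differed by batch. Over the WT and LCD KO libraries, the ratio of the mean level in batch 2 to that in batches 1 and 3 had a median of 2.59 over the 26 tested clustered genes and of 1.02 over all genes tested. It ran from 0.53 to 7.84 among these clustered genes and was 0.62 for Hist1h2bc, and for the clustered sum with Hist1h2bc it was 1.09. In 9 of the 26 (34.6%) every batch 2 library was above every other, against 16.3% of all genes tested. The ratio was 0.30 for H1foo, 0.18 for H3f3b and 1.42 for H3f3a. Rn45s, a ribosomal RNA precursor, took 1.14% to 3.11% of counts in batch 2 and at most 0.714% elsewhere; its part in these ratios was not tested.

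H1foo was not called in any of the 7 comparisons, and batch 1 stood apart from batches 2 and 3, which overlapped. It took 1.29% to 1.70% of all counts in batch 1, 0.460% to 0.701% in batch 2 and 0.496% to 0.763% in batch 3. Within batch 1 it was at 20656 to 23324 CPM in LCD KO, against 16977 to 20356 CPM in WT. In batch 3 it was at 5608 and 6685 CPM in LCD KO, against 5839 and 6897 CPM in WT. The log2 fold change for LCD KO was 0.06 ± 0.12 (adjusted p = 0.784).

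The H3.3 genes were not called. H3f3a was at 319, 595 and 664 CPM in LCD KO, against 282, 570 and 752 CPM in WT, with a log2 fold change of -0.05 (adjusted p = 0.798). H3f3b was at 854, 2881 and 8308 CPM in LCD KO, against 694, 3428 and 5465 CPM in WT, with a log2 fold change of 0.40 ± 0.16 (adjusted p = 0.0865). Within batch 1 H3f3b did pass the test, with a log2 fold change of 0.66 ± 0.13 (adjusted p = 0.00136), and it also passed with scaling to total counts. The linker variant H1f0 was at 68.1, 158 and 230 CPM in LCD KO, against 60.8, 148 and 289 CPM in WT, and was not called (adjusted p = 0.923). Its groups overlapped in batch 1, while in batches 2 and 3 LCD KO lay above WT.

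The H2A variants included 4 called genes. H2afj, which encodes H2A.J, was at 77.2, 130 and 209 CPM in LCD KO, against 56.1, 62.0 and 87.1 CPM in WT, a log2 fold change of 0.97 ± 0.19 (adjusted p = 0.000874). Its groups were apart within each batch and overlapped when pooled. The log2 fold change was 1.45 ± 0.17 within batch 1, 0.34 ± 0.30 within batch 2 and 0.79 ± 0.32 within batch 3.

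Both H2A.Z genes were higher in LCD KO. H2afv was at 87.9, 107 and 155 CPM in LCD KO, against 68.7, 74.5 and 88.1 CPM in WT, a log2 fold change of 0.59 ± 0.15 (adjusted p = 0.00621). H2afz was at 78.5, 99.8 and 188 CPM in LCD KO, against 59.2, 68.7 and 93.0 CPM in WT, a log2 fold change of 0.59 ± 0.18 (adjusted p = 0.0231). H2afz overlapped between the groups and lost its call in 5 of 13 fits that left out 1 library (LCD KO 2 or 6, or WT 2, 3 or 6), at adjusted p = 0.0594 to 0.0915, while H2afv kept it in all 13.

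H2afx had the smallest called change. It was at 153, 239 and 409 CPM in LCD KO, against 71.8, 215 and 313 CPM in WT, with wide overlap and a log2 fold change of 0.47 ± 0.16 (adjusted p = 0.0394). The call was lost in 9 of 13 fits that left out 1 library (LCD KO 2 to 7, or WT 3, 4 or 5), at adjusted p = 0.0539 to 0.114. The macroH2A genes H2afy and H2afy2 had log2 fold changes of -0.42 and -0.57, with adjusted p-values of 0.113 and 0.371.

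Of the germ-cell genes, Hist1h2aa, which encodes TH2A, was at 39.4, 53.3 and 77.2 CPM in LCD KO, against 28.5, 34.3 and 47.3 CPM in WT. The log2 fold change was 0.64 ± 0.17 (adjusted p = 0.00777), with the groups apart within each batch. Hist1h2ba, its divergent neighbour encoding TH2B, was at 2.91, 5.76 and 9.15 CPM in LCD KO, against 1.24, 2.82 and 9.17 CPM in WT. These groups overlapped, and the log2 fold change of 0.43 did not pass the test (adjusted p = 0.367).

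**Figure D3:**
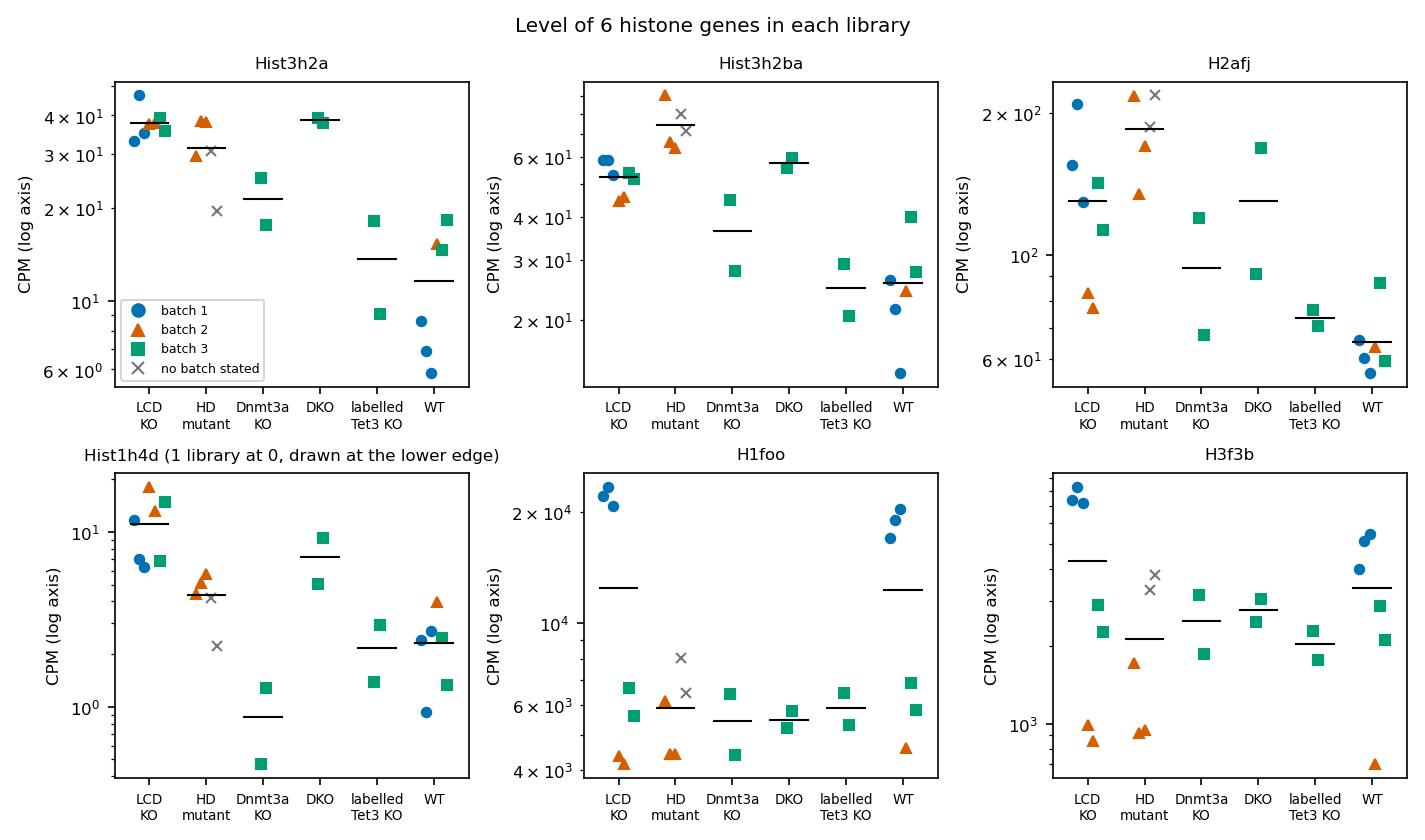
CPM (vertical log axes) of 6 histone genes in each of the 24 libraries, by group; marker colour and shape give the batch and horizontal lines the group means. Hist3h2a, Hist3h2ba and Hist1h4d separate LCD KO and DKO from WT, whereas H1foo and H3f3b are highest in the batch 1 libraries.

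Called genes with and without the stem-loop in an annotated transcript were both found. Of the 16 genes higher in LCD KO, 12 had it, as did 22 of the 39 tested. A hairpin beyond the annotated end could not be found, and the transcript of Hist1h2aa, called without a match, is 390 bases long. Of the 16, 7 shared no window with another transcript (Hist3h2ba, Hist1h4d, Hist1h1d, H2afj, H2afv, H2afx and Hist1h2aa), as did 15 of the 39 tested, so no stretch of that length in these 7 is held by another annotated transcript.

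In HD mutant oocytes 3 of 39 members were higher than in WT and 0 were lower, where 7.83% of all genes were called and 4.08% were called higher. The 3 were H2afj, Hist3h2ba and Hist3h2a. HD mutant 4 and 5 have no stated batch and did not enter the test, so their values stand beside it as levels only. H2afj was at 217, 135, 170, 187 and 218 CPM in HD mutant 1 to 5, against 56.1, 62.0 and 87.1 CPM in WT, and Hist3h2ba was at 90.5, 66.1, 63.4, 79.7 and 71.0 CPM in HD mutant, against 14.0, 25.2 and 40.1 CPM in WT. Hist3h2a was at 29.6, 38.3, 38.0, 30.8 and 19.6 CPM in HD mutant, against 5.85, 11.6 and 18.3 CPM in WT. All 5 HD mutant libraries were above all WT libraries for each of these genes. The log2 fold changes were 1.86 ± 0.29 for H2afj (adjusted p = 0.000245), 1.70 ± 0.26 for Hist3h2ba (adjusted p = 0.000131) and 1.48 ± 0.29 for Hist3h2a (adjusted p = 0.00231).

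Hist1h4d was the 1 member that differed between HD mutant and LCD KO, a comparison in which 2.08% of all genes were called and 0.907% were lower. It was at 4.41, 5.13, 5.77, 4.19 and 2.24 CPM in HD mutant, against 6.26, 11.7 and 18.1 CPM in LCD KO. HD mutant lay below LCD KO throughout, with a log2 fold change of -1.65 ± 0.38 (adjusted p = 0.0173). The call was lost in 3 of 10 fits that left out 1 library (HD mutant 1 or 2, or LCD KO 4), at adjusted p = 0.0622 to 0.145. Against WT, Hist1h4d in HD mutant had a log2 fold change of 0.52 ± 0.44 (adjusted p = 0.505).

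Deletion of Dnmt3a alone gave 0 calls among the 39 members, with edgeR and with DESeq2, and 2 had an unadjusted p under 0.05 (Hist1h2bk and Hist1h4d, both negative), where 0.755% of all genes were called. DKO oocytes, which lack both Dnmt3a and the LCD, had 2 members higher than WT and 0 lower, where 3.79% of all genes were called and 2.27% were higher. The 2 were again Hist3h2a and Hist3h2ba. Hist3h2a was at 39.4 and 37.7 CPM in DKO and at 25.1 and 17.6 CPM in Dnmt3a KO, against 14.6 and 18.3 CPM in the WT libraries of batch 3. The log2 fold change of DKO over WT was 1.49 ± 0.30 (adjusted p = 0.00346), and DKO lay above all WT libraries.

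Hist3h2ba was at 55.7 and 59.2 CPM in DKO and at 44.8 and 27.9 CPM in Dnmt3a KO, against 40.1 and 27.6 CPM in the WT libraries of batch 3. Its log2 fold change in DKO was 0.97 ± 0.26 (adjusted p = 0.0323), and the call was lost in 4 of 8 fits that left out 1 library (DKO 1 or 2, or WT 2 or 6), at adjusted p = 0.0509 to 0.175. With batch 3 alone, a fit of fewer libraries, 0 members were called in DKO, and 7 had an unadjusted p under 0.05. Hist1h4d in DKO missed the threshold against WT, with a log2 fold change of 1.64 ± 0.49 (adjusted p = 0.0600).

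Against Dnmt3a KO, DKO oocytes had 1 member higher, Hist1h4d, where 1.99% of all genes were called and 1.07% were higher. Its level was 5.01 and 9.27 CPM in DKO, against 0 and 1.29 CPM in Dnmt3a KO. The log2 fold change was 3.13 ± 0.68 (adjusted p = 0.0141), and the call was lost in 2 of the 4 fits that left out 1 library (DKO 2 or Dnmt3a KO 1), at adjusted p = 0.118 and 0.0915. Without Dnmt3a KO 1, the library at 0, the fold change was 2.43 on the log2 scale. With Dnmt3a KO 2 left out the remaining library of that group is at 0, so no fold is given for it. Whether the LCD effect differed with and without Dnmt3a was tested directly, and 0 of 39 members were called, with 2 at an unadjusted p under 0.05 (Hist1h2aa and Hist3h2a), where 0.0678% of all genes were called.

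The libraries labelled Tet3 KO gave 0 calls among the members with edgeR and with DESeq2 and 1 unadjusted p under 0.05, for Hist1h2bk, where 1.37% of all genes were called. Hist3h2a was at 18.3 and 9.05 CPM and Hist3h2ba at 29.1 and 20.5 CPM there, against 14.6 and 18.3 CPM and 40.1 and 27.6 CPM in the WT libraries of batch 3. With 2 libraries in each of these groups, a missed threshold does not show equal levels.

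**Figure D4:**
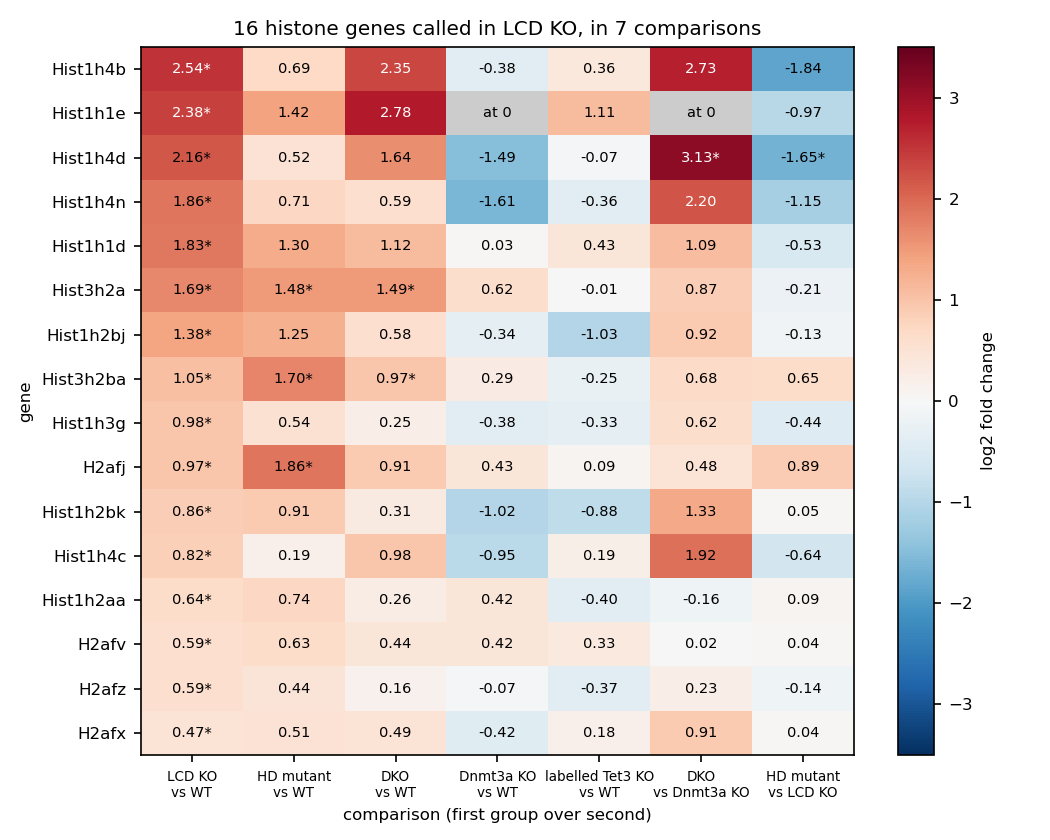
Log2 fold change (colour and printed value) of the 16 genes called in LCD KO (rows) in 7 comparisons (columns, first group over second); a star marks an adjusted p under 0.05 and grey cells a group with every library at 0. Hist3h2a and Hist3h2ba carry a star in LCD KO, HD mutant and DKO against WT. These 3 columns share the WT libraries and the LCD KO columns share the LCD KO libraries, so they are not independent.

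All 16 genes called in LCD KO had positive log2 fold changes in HD mutant and in DKO against WT, with medians of 0.72 and 0.75. In Dnmt3a KO 6 of the 16 were positive, with a median of -0.36, and in the libraries labelled Tet3 KO 7 of the 16, with a median of -0.04. All of these comparisons use the same WT libraries, so the values stand side by side and their likeness is not a result. In DKO against Dnmt3a KO, where both groups carried Cre, 15 of the 16 were positive, with a median of 0.92. There 32 of all 39 tested members were positive, with a median of 0.51, against -0.004 over all genes tested. Among the 15, Hist1h1e was at 0 in each Dnmt3a KO library, so the size of its change is not known. The part of Cre was not tested.

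Of 16 tested genes that process histone mRNA, which include Slbp, the protein that binds the stem-loop, 0 were called in LCD KO with edgeR, where 18.3% of all genes were called. Their median log2 fold change was -0.01, and 1 had an unadjusted p under 0.05. In DKO against WT, where 3.79% of all genes were called, 0 of the 16 were called as well, with a median of 0.21 and 3 at an unadjusted p under 0.05. A missed threshold does not show an unchanged level.

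Of the 25 histone chaperones and exchange factors tested, 2 were higher and 2 lower in LCD KO, a share near the 18.3% called over all genes, so the count is not a result about this list. Asf1b, a chaperone of H3 and H4, had a log2 fold change of 0.89 ± 0.17 (adjusted p = 0.000725), and Atrx, which takes part in H3.3 deposition, 0.56 ± 0.15 (adjusted p = 0.0115). Anp32e, which removes H2A.Z from chromatin, had a log2 fold change of -1.16 ± 0.23 (adjusted p = 0.00112), and Chaf1a, a subunit of the replication-coupled assembly factor CAF-1, -0.46 ± 0.15 (adjusted p = 0.0373). Anp32e was also lower in HD mutant, by a log2 fold change of -1.14 ± 0.34 (adjusted p = 0.0389), and in DKO, by -1.43 ± 0.40 (adjusted p = 0.0383).

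Markers of other cells moved in part with LCD KO. Of 6 genes of proliferating cells, 3 were higher in LCD KO, where 8.89% of all genes were called higher. They were Rrm2, Pcna and Top2a, with log2 fold changes of 0.41, 0.39 and 0.42. The 6 genes summed to 976 to 1712 CPM in LCD KO and 936 to 1467 CPM in WT. Of 11 granulosa or cumulus markers 5 were tested and 1 was higher, Hsd3b1 (0.99 ± 0.33, adjusted p = 0.0355). Their sum was 75.9 to 348 CPM in LCD KO, against 64.2 to 118 CPM in WT. The highest value was that of LCD KO 2, where the inhibin gene Inha alone was at 293 CPM, and the other 6 LCD KO libraries were at 75.9 to 119 CPM. Without LCD KO 2, 12 histone genes were called higher and 0 lower. Amh, Fshr, Foxl2, Has2 and Inhba stayed at or under 3.78 CPM and Ptx3 was at 0 in every library. Cyp19a1, Nr5a2, Kitl and Hsd3b1 were detected in all 24 libraries, at mean levels of 29.9, 23.9, 7.36 and 4.18 CPM. Of the 10 oocyte markers 5 were lower in LCD KO, where 1113 of all 11794 genes tested were lower. The median log2 fold change over the list was -0.47. The list held Zp1, Zp2, Zp3, Gdf9, Bmp15, Nlrp5, Figla, Oosp1, Zar1 and H1foo, itself a member and not called. The part of these shifts in the histone differences was not tested.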

How the data were processed

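Polyadenylated RNA of mouse GV oocytes was sequenced as 150-base paired reads from pools of 10 oocytes, and the authors deposited raw read counts per gene symbol, without normalization. Per the submitters' processing notes, the tools were Trim Galore 0.5.0, HISAT2 2.1.0 and featureCounts 1.6.4, with build mm9; which annotation was used, and how strand and multiply aligned reads were handled, is not given in the sources used here. Such choices can move counts between near-identical histone genes and between overlapping genes. ERCC rows (92) were left out.

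Counts were tested with the quasi-likelihood test of edgeR 4.0.16 in R 4.3.3 (group plus batch, TMM factors, robust, filterByExpr by group); it took in the 22 libraries whose batch is stated, tested 11794 genes and had 14 residual degrees of freedom. P-values were adjusted over all genes tested with the Benjamini-Hochberg method, and adjusted values below 0.05 were called. Standard errors follow from the fold change and its F value. Levels are CPM with TMM factors over all 24 distinct libraries, whose factors were 0.730 to 0.761 in batch 1 and 0.957 to 1.19 elsewhere. Per-length levels divide by the GENCODE exon length. Within groups, all 49 library pairs differed beyond counting noise (lowest chi-square 3.36 per degree of freedom). The labels do not tie pools to animals, so p-values measure the spread between pools. The test was checked on simulated counts.

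Alternatives were RLE factors, total counts, no filter, no batch term, DESeq2 1.42.0, single batches, each library left out, a replicate block and, chosen after the data were seen, fits without batch 2. Members with values are H1foo, Hist1h4b, every called member, the 12 most abundant, and the germ-cell genes; others named for a count or a class were chosen after their values were seen. The members and the lists were chosen with earlier results of these data known. Sequences are from GENCODE M21 and RefSeq for GRCm38, which differs from the build of the counts.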

Additional observations from a re-analysis of the deposited data

Results flagged for a closer look

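In groups of 4 to 10 libraries, 68 sets of values of named members were examined for a single library far from the rest, and 6 were found (Dixon's criterion). Chance gives about 1 in 20 for values of 1 distribution, whereas these sets pool batches that differ in level. WT 4, the single WT library of batch 2, was high for Hist1h1e (3.42 CPM, the next at 0.796) and for Hist1h4b (1.62 CPM, the next at 0.311). In WT 4 the library and its batch cannot be told apart. LCD KO 4, also of batch 2, was high for Hist1h1d at 7.01 CPM, with the next at 3.34. WT 5 was high for H2afj at 87.1 CPM, with the next at 66.0. HD mutant 1 was high for Hist1h2aa at 70.9 CPM, with the next at 40.5. HD mutant 4 was at 0 for Hist1h4n, with the next at 1.68 CPM. Hist1h4d differed between HD mutant and LCD KO by the test of that contrast, with a log2 difference of -1.65.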

How the results depend on the processing

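The count of called histone genes in LCD KO against WT, 16 in the fit described, was 16 with RLE factors, 17 with total counts, 19 without the filter, 16 with DESeq2 and 12 without batch 2, and 12 to 17 when 1 library was left out. It was 0 with batch 2 or batch 3 alone, fits with fewer samples. It was 6 without the batch term, a setting that here and below also took in HD mutant 4 and 5. A replicate block in place of the batch term gave 2. Same-numbered libraries did not all deviate together (correlations of -0.39 to 0.74), but these deviations were taken over all batches. LCD KO 5 is of batch 2 and WT 5 of batch 3, and whether the numbers pair the samples within a batch was not settled. In HD mutant, 3 members became 6 with total counts or without the filter (5 higher and 1 lower) and 0 with batch 2 alone, with 3 to 6 when 1 library was left out. In DKO against WT, 2 became 5 without the filter, 4 with DESeq2 and 0 with batch 3 alone, with a range of 1 to 4. In DKO against Dnmt3a KO, 1 became 3 with total counts or DESeq2, 4 without the filter and 0 without the batch term, with a range of 0 to 2, and stayed 1 with the replicate block. In HD mutant against LCD KO, 1 became 5 without the filter and 0 without the batch term, with a range of 0 to 2. Dnmt3a KO and the libraries labelled Tet3 KO gave 0 in every alternative. P-values were adjusted over all genes of each fit, so these counts also follow the calls over all genes. They are not results about the histone genes alone. The cause of these shifts was not tested. The summed clustered level of batch 2 over that of batches 1 and 3 was 1.09 in CPM and 1.34 as a share of total counts. No named member changed sign with a call; 97 single-gene results lost their call and 5 gained one.

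Of the 73 members, 34 were under the filter on low counts, and Hist1h4b and Hist1h1e were at 0 in 3 WT libraries. Intervals of counts cover counting error only, since the reads carried no molecular identifiers.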
